A study of Mus musculus with 19 samples.

Results

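Btg1, Btg2, Bcl6 and Inhba were followed across 19 two-colour arrays of cultured mouse hippocampal neurons. The members were every probe that the array design names for one of these 4 genes. That gave 7 of the 41174 gene probes on the array, 2 for Btg1, 3 for Btg2, 1 for Bcl6 and 1 for Inhba, and 4 of the 19202 genes tested. The series asked how basal activity of NMDA receptors, the glutamate-gated and calcium-permeable channels of excitatory synapses, regulates neuronal gene expression and survival. Dissociated neurons at culture day 21 were exposed for 6 h to vehicle (5 arrays), 100 µM AP5 (5 arrays), 100 nM NVP-AAM077 (NVP, 4 arrays) or 1 µM Ro25-4891 (Ro25, 5 arrays). AP5 competes with glutamate at NMDA receptors in general, and NVP competes there with a moderate bias towards GluN2A-containing receptors. The number in the label of Ro25 differs from the one carried by the common GluN2B antagonist of that prefix, which makes the compound uncertain. Doses were not matched between compounds. The labels give no strain, animal age or sex, and do not say whether replicates were separate cultures. The p-values therefore reflect the spread among these samples alone, and that spread may be technical.

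Calcium that enters through synaptic NMDA receptors can spread to the nucleus, where it activates calcium/calmodulin-dependent kinase IV and the transcription factor CREB. A set of genes induced in this way protects cultured hippocampal neurons from death, and has been named activity-regulated inhibitor of death genes. Btg2 and Inhba belong to that set. Btg1 and Btg2 are antiproliferative proteins that bind the CCR4-NOT deadenylase and the arginine methyltransferase Prmt1. Bcl6 is a zinc finger repressor of transcription that recruits corepressors such as BCOR and NCOR1, and it promotes neuronal differentiation in the developing cortex. Inhba encodes the inhibin beta-A subunit, and its homodimer is activin A, a secreted ligand of the TGF-beta superfamily with neuroprotective activity.

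The sequences before the transcription starts are shown because the set is known for regulation through CREB. They are the 250 bases before the start from RefSeq (GRCm38.p6), 5′ to 3′ on the strand of the gene. All 4 genes matched the RefSeq table, and Bcl6 had a further start that is not printed. Capitals mark every match to the letters of a cAMP response element (full site TGACGTCA, with TGACG or its reverse complement CGTCA as the partial site), of a FOXO site (TGTTTAC) or of a MEF2 site, searched on both strands. The partial site lies inside the full site, so these matches overlap.

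Btg1, chr10:96616751-96617000, plus strand:
Btg1: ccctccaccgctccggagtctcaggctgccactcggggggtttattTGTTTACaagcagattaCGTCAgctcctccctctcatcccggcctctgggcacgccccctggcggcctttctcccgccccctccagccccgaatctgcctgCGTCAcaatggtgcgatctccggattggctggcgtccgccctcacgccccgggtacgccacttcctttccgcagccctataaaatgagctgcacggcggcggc
Btg2, chr1:134079156-134079405, minus strand:
Btg2: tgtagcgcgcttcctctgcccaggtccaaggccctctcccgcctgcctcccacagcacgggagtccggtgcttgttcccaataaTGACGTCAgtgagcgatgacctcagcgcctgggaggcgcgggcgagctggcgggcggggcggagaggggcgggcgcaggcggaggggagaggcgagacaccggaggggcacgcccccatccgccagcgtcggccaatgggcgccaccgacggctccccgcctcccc
Bcl6, chr16:23988853-23989102, minus strand:
Bcl6: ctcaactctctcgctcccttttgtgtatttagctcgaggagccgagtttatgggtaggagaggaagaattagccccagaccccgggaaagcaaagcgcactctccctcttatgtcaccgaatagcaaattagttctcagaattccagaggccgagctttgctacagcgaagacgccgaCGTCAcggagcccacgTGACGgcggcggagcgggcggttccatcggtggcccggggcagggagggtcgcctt
Inhba, chr13:16011601-16011850, plus strand:
Inhba: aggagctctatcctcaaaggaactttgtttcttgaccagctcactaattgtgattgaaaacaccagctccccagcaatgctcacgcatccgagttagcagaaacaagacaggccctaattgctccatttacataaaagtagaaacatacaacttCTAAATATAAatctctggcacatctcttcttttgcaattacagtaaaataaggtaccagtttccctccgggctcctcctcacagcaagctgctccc

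The Btg2 window held the full site TGACGTCA, with its first base 166 bases before the start, as did 1.55% of the 32851 promoter windows of that length. The Btg1 window held 2 partial sites, at 187 and 103 bases before the start, and a FOXO match at 204 bases. The printed Bcl6 window held 2 partial sites, at 72 and 56 bases, and its other start had no match to any letters searched. A partial site was present in 17.8% of all windows and a FOXO match in 3.17%. In the Inhba window only a MEF2 match was found, at 96 bases, as in 2.92% of all windows. The AP-1 letters TGACTCA, present in 4.46% of all windows, were in none of the 5 windows of the members. A match is a description of letters and not of binding, which was not measured.

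Levels are log2 ratios of red (Cy5, neuron RNA) over green (Cy3, a universal mouse reference RNA) on each array, and the dyes were never swapped. A difference between groups of such levels is a log2 fold change. All 7 probes were well above background in both channels on all 19 arrays, and none was marked as faulty or saturated. Where a gene had several probes, the brightest over the 19 arrays represented it. The probes lay, in the mm8 assembly given by the file headers, at chr10:96048969-96049028 (plus strand) for Btg1, chr1:135891928-135891987 (minus) for Btg2, chr16:23880423-23880482 (minus) for Bcl6 and chr13:15817688-15817747 (plus) for Inhba. Their place in exons or untranslated regions was not given in the sources used here. Raw red signals of these 4 probes ran from 4540 to 8140 for Btg1, from 1970 to 3500 for Btg2, from 7180 to 13000 for Bcl6 and from 698 to 1190 for Inhba.

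The groups were tied to slides. AP5 1 to 4 shared slide 1, vehicle 1, 3, 4 and 5 shared slide 5, and no slide held both groups, so that slide and treatment cannot be told apart for AP5 against vehicle. A set of 4 arrays stood apart in the summed level of 10 astrocyte markers, at 2.97 (Ro25 3), 3.09 (vehicle 3), 3.15 (NVP 4) and 3.21 (AP5 5) as a mean log2 ratio, while the next lowest of the other 15 arrays was at 3.94. Each group held 1 of the 4. The main results that rest on them are given with and without them. Correlations of deviations from group means are given over all 19 arrays only. Defining neuron markers (Slc17a7, Camk2a, Gad1, Gad2) and all 10 astrocyte markers were above background on all 19 arrays. The microglial markers P2ry12 and Itgam were above background on none, although Aif1, Csf1r, Trem2 and Tyrobp were on all 19. In RNA from mixed cells, fewer cells of a type and less RNA per cell cannot be told apart.

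With AP5, Btg2 and Inhba were lower than with vehicle and Btg1, by its brighter probe, was higher, while Bcl6 did not pass the test. The largest of these changes was 1.29-fold. In this comparison 18% of all genes tested passed (10.8% higher and 7.22% lower), and 11.9% had AP5 and vehicle arrays that did not overlap (7.42% with AP5 above vehicle and 4.49% below). The 3 of 4 members called are read against that background. By size of change, Inhba exceeded 93.2% of all genes tested, Btg2 91.1%, Btg1 80.9% and Bcl6 66.1%.

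**Figure D1:**
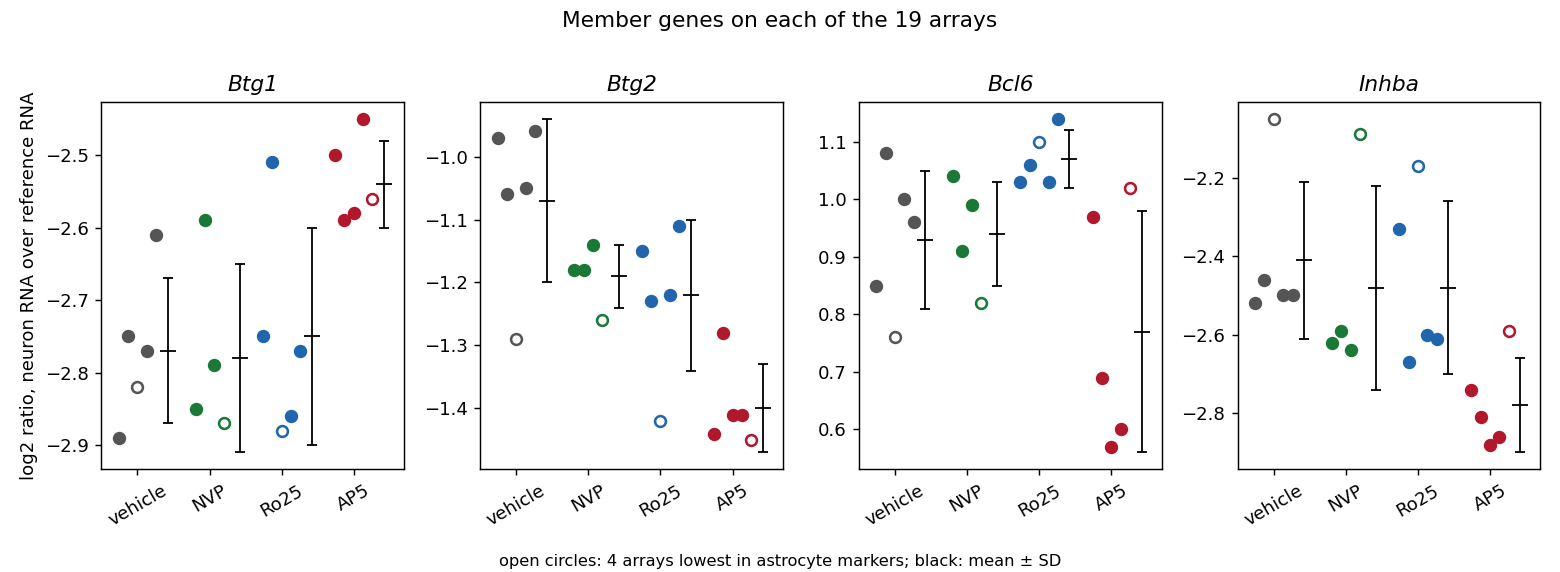
Log2 ratio of neuron RNA over reference RNA for the representing probe of each gene on each of the 19 arrays, by group, with the mean ± SD in black and the 4 arrays lowest in astrocyte markers as open circles. AP5 arrays lie above all vehicle arrays for Btg1 and below all of them for Inhba, and open circles are the highest of each group for Inhba and the lowest for Btg2.

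For Btg2, the levels with vehicle were -0.97, -1.06, -1.29, -1.05 and -0.96 in replicates 1 to 5, and those with AP5 were -1.44, -1.28, -1.41, -1.41 and -1.45. The groups overlapped only through AP5 2 and vehicle 3. The mean fell from -1.07 ± 0.13 (SD, n = 5) to -1.40 ± 0.07 (SD, n = 5), a log2 fold change of -0.33 (SE 0.07, 95% confidence interval -0.47 to -0.19, limma adjusted p = 0.00172), or 1.26-fold lower. This call held whichever of the 19 arrays was left out, with log2 fold changes from -0.38 to -0.30. It was lost with slide as a fixed block (-0.51, limma adjusted p = 0.457) and with log ratios brought to 1 spread (-0.33, 0.0692).

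The other Btg2 probes gave the same direction. The probe A_52_P925197 (chr1:135893750-135893809) read -1.06, -0.97, -0.85, -0.89 and -0.75 with vehicle and -1.21, -1.24, -1.31, -1.17 and -1.39 with AP5. These groups did not overlap, and the change was -0.36 (SE 0.10, limma adjusted p = 0.02 over all probes kept). At A_52_P35217 (chr1:135894015-135894074), vehicle arrays ran from -0.54 to -0.26 and AP5 arrays from -0.82 to -0.63, again without overlap. Its change of -0.31 (SE 0.11) had a limma adjusted p of 0.0612 and missed the threshold, among probes of which 17% were called. The probe that represents Btg2 lay downstream of both others in the direction of transcription, and the 3 estimates lay within 1 standard error of each other.

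Inhba, the activin beta-A subunit, had vehicle levels of -2.52, -2.46, -2.05, -2.50 and -2.50 and AP5 levels of -2.74, -2.81, -2.88, -2.86 and -2.59. All AP5 arrays were below all vehicle arrays, and vehicle 3 stood far above the other vehicle arrays. The mean fell from -2.41 ± 0.20 to -2.78 ± 0.12 (SD, n = 5 each), a log2 fold change of -0.37 (SE 0.12, interval -0.62 to -0.12, limma adjusted p = 0.0377), or 1.29-fold lower with an interval from 1.09 to 1.53. The call was close to the threshold. It was lost without AP5 1, 2, 3 or 4 (adjusted p = 0.0615, 0.0668, 0.0808 and 0.0747) and without vehicle 3 (change -0.28, 0.104) or vehicle 5 (-0.39, 0.0518). With the replicate number as a block the change was -0.37 (limma adjusted p = 0.0619), although the labels give no pairing. With slide as a fixed block, which links AP5 to vehicle only through the other groups, it was 0.15 (adjusted p = 0.907), the opposite sign. In the red channel alone the change was -0.23 (adjusted p = 0.349).

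Btg1, the other BTG protein, moved the opposite way at its brighter probe. Vehicle arrays read -2.89, -2.75, -2.82, -2.77 and -2.61, and AP5 arrays -2.50, -2.59, -2.58, -2.45 and -2.56. All AP5 arrays were above all vehicle arrays, the nearest being AP5 2 and vehicle 5. The mean rose from -2.77 ± 0.10 to -2.54 ± 0.06 (SD, n = 5 each), a log2 fold change of 0.23 (SE 0.07, interval 0.08 to 0.38, limma adjusted p = 0.0303), or 1.17-fold. The second Btg1 probe, A_52_P436258 (chr10:96048313-96048372), did not show this change in the log2 ratio. It read -2.56, -2.32, -2.43, -2.59 and -2.08 with vehicle and -2.23, -2.53, -2.52, -2.33 and -2.20 with AP5, with full overlap and a difference of 0.03 (SE 0.10, interval -0.17 to 0.23, limma adjusted p = 0.847 over probes). Its raw red signals of 232 to 355 were far below those of the brighter probe. In the red channel alone its mean was 8.17 ± 0.13 with vehicle and 8.38 ± 0.14 with AP5 (SD), with no test. Those of the brighter probe were 12.50 and 12.75. How far the 2 probes differ therefore depended on the normalization. With the mean of both probes the change was 0.13 (limma adjusted p = 0.233). A fixed slide block gave 0.38 (limma adjusted p = 0.576). The call was also lost without AP5 1 (adjusted p = 0.0649), AP5 4 (0.0696), vehicle 1 (0.0792), vehicle 3 (0.0643) or vehicle 4 (0.0511), at changes from 0.20 to 0.23.

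**Figure D2:**
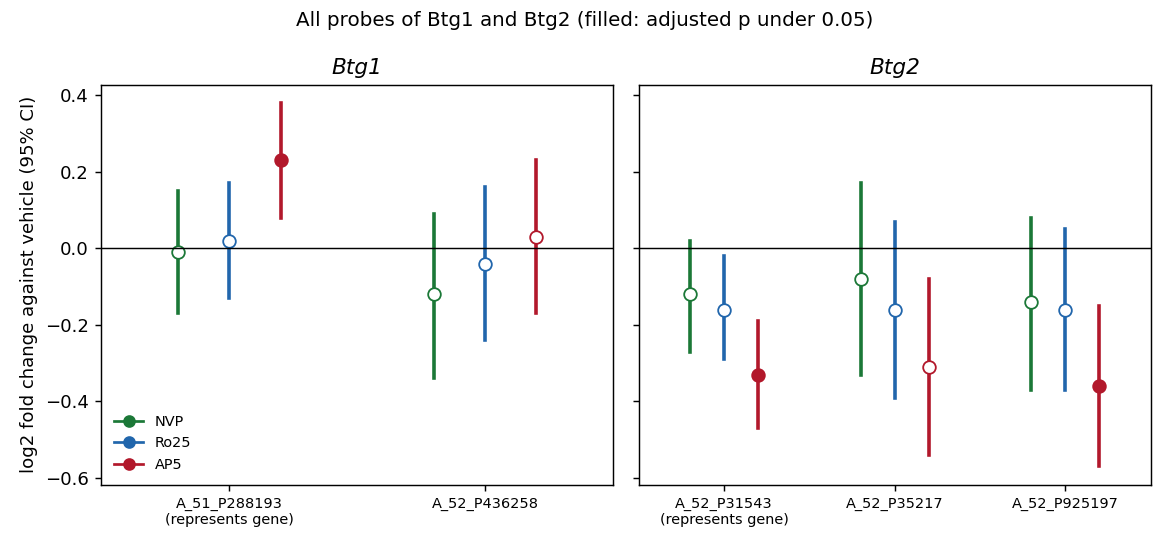
Log2 fold change against vehicle with 95% confidence intervals for both Btg1 probes and all 3 Btg2 probes, for NVP, Ro25 and AP5, with filled circles where the adjusted p was under 0.05. The 3 Btg2 probes give AP5 changes of -0.33, -0.31 and -0.36, whereas the Btg1 probes give 0.23 and 0.03.

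Bcl6 was the only one of the 4 genes whose loess-normalized log2 ratio was above 0. Its levels were 0.85, 1.08, 0.76, 1.00 and 0.96 with vehicle and 0.97, 0.69, 0.57, 0.60 and 1.02 with AP5. AP5 2, 3 and 4 lay below all vehicle arrays, while AP5 1 and 5 lay within the vehicle range. The difference was -0.16 (SE 0.08, interval -0.33 to 0.02, limma adjusted p = 0.202). It was -0.26 (adjusted p = 0.0362) without the 4 arrays lowest in astrocyte markers and -0.28 (0.00903) with arrays weighted by their quality. An exact two-sided permutation test of each single gene, unadjusted, gave 0.00794 for Btg1 and Inhba, the smallest value that 5 against 5 arrays allows, 0.0159 for Btg2 and 0.175 for Bcl6.

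Neither of the other antagonists changed a member by the test. No gene of the 19202 passed for NVP or for Ro25 in limma (0% called for each), where 1592 and 1182 genes had an unadjusted p under 0.05. No member's representing probe had antagonist and vehicle arrays that did not overlap, against 2.76% of all genes for NVP and 0.812% for Ro25.

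By the probe that represents Btg2, NVP arrays read -1.18, -1.18, -1.14 and -1.26, all between the bulk of the vehicle arrays and the AP5 arrays. The change was -0.12 (SE 0.07, interval -0.27 to 0.02, limma adjusted p = 0.705). The other Btg2 probes did not show this order. NVP read -1.20, -0.65, -1.13 and -1.22 at A_52_P925197 and -0.63, -0.09, -0.57 and -0.73 at A_52_P35217, with NVP 2 above all vehicle arrays at both. Inhba read -2.62, -2.59, -2.64 and -2.09, where NVP 4 stood far above the other arrays, with a change of -0.08 (SE 0.13, interval -0.34 to 0.19, adjusted p = 0.966). For Btg1 the NVP levels were -2.85, -2.59, -2.79 and -2.87, and the change was -0.01 (interval -0.17 to 0.15). Bcl6 levels were 1.04, 0.91, 0.99 and 0.82, with a change of 0.01 (interval -0.17 to 0.20). The intervals of Btg1 and Bcl6 exclude a log2 change beyond 0.20 in either direction, while those of Btg2 and Inhba reach down to -0.27 and -0.34.

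Ro25 arrays read -1.15, -1.23, -1.42, -1.22 and -1.11 for Btg2. The change was -0.16 (SE 0.07, interval -0.29 to -0.02), with an unadjusted p of 0.0276 and a limma adjusted p of 0.748. By the probe that represents Btg2, vehicle 3 was the one vehicle array inside the Ro25 range. At both other Btg2 probes several vehicle arrays lay inside that range. Bcl6 levels of 1.03, 1.06, 1.10, 1.03 and 1.14 were the least spread of any group, and all vehicle arrays but vehicle 2, at 1.08, lay below them. Its change was 0.15 (SE 0.08, interval -0.03 to 0.32, limma adjusted p = 0.897). Inhba read -2.33, -2.67, -2.17, -2.60 and -2.61 (change -0.07, interval -0.32 to 0.18). For this gene Ro25 2, 4 and 5 lay below all vehicle arrays, and Ro25 1 and 3 lay within the vehicle range. Btg1 read -2.75, -2.51, -2.88, -2.86 and -2.77 (change 0.02, interval -0.13 to 0.17), with Ro25 2 above all vehicle arrays and the others within the vehicle range. On slide 4, which held 3 Ro25 arrays and vehicle 2, the differences were -0.19 for Btg2, -0.02 for Inhba, 0.03 for Btg1 and 0.02 for Bcl6, with no test.

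**Figure D3:**
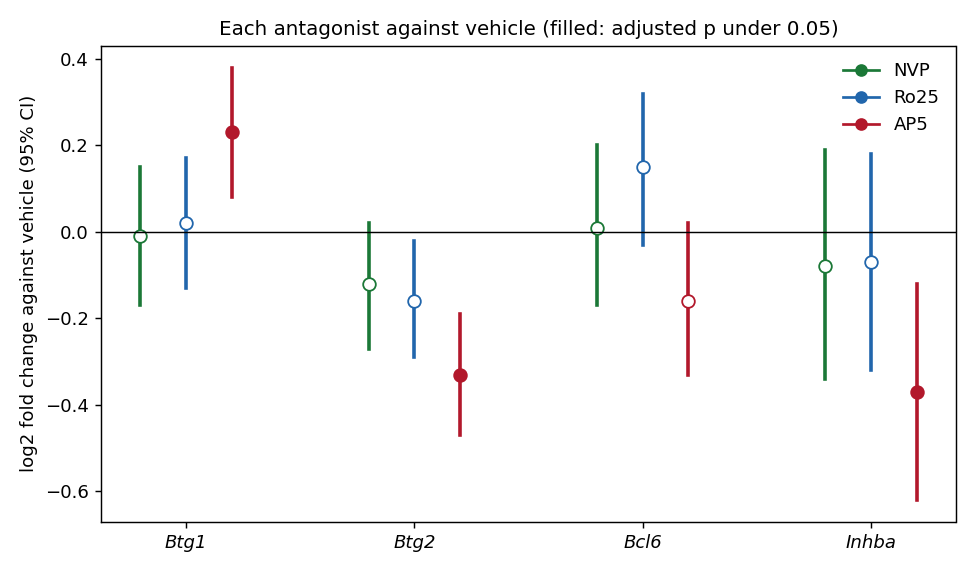
Log2 fold change against vehicle with 95% confidence intervals for the 4 genes with NVP, Ro25 and AP5, with filled circles where the limma adjusted p was under 0.05. Filled circles occur for AP5 alone, at 0.23 for Btg1, -0.33 for Btg2 and -0.37 for Inhba.

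A call with AP5 and none with the other compounds does not show that they differ, so the groups were also set against each other, in 3 comparisons at the unmatched doses used. For AP5 against Ro25, Bcl6 passed the test at -0.30 (SE 0.08, interval -0.48 to -0.13, limma adjusted p = 0.0348), and all AP5 arrays lay below all Ro25 arrays, in a comparison where 6.06% of genes were called (1.95% lower) and 6.83% did not overlap (2.46% lower). AP5 2, 3 and 4 lay far below the others. The call was lost without AP5 2 (adjusted p = 0.0779), 3 (0.0989) or 4 (0.0943) and without any one Ro25 array (0.054, 0.066, 0.0642, 0.0549 and 0.0816 for replicates 1 to 5), at changes from -0.32 to -0.25.

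The other members missed the threshold against Ro25, with differences of 0.22 for Btg1 (limma adjusted p = 0.0879), -0.17 for Btg2 (0.137) and -0.30 for Inhba (0.168). Against NVP, where 4.24% of genes were called and 8.12% did not overlap (3.03% lower), AP5 differed by 0.24 for Btg1 (interval 0.08 to 0.40, adjusted p = 0.0894), -0.21 for Btg2 (-0.35 to -0.06, 0.105), -0.17 for Bcl6 (-0.36 to 0.01, 0.359) and -0.29 for Inhba (-0.56 to -0.03, 0.25). All AP5 arrays lay below all NVP arrays for the probe that represents Btg2, as for no other member. At the other Btg2 probes these groups overlapped, with differences of -0.23 at A_52_P35217 (limma adjusted p = 0.373 over probes) and -0.22 at A_52_P925197 (0.358). Single arrays decided some of these p-values. Btg1 passed against NVP without NVP 2 (0.30, adjusted p = 0.0394) or Ro25 2 (0.24, 0.0446) and against Ro25 without Ro25 2 (0.28, 0.0168), and Btg2 passed against Ro25 without Ro25 3 (-0.22, 0.04). Other settings turned some of these differences into calls. With array weights AP5 differed from NVP by -0.32 for Bcl6 (limma adjusted p = 0.0047), 0.24 for Btg1 (0.0261) and -0.20 for Btg2 (0.0229), and from Ro25 by -0.35 for Inhba (0.0271) and -0.18 for Btg2 (0.0476). With slide as a random block Btg1 passed against NVP (0.24, limma adjusted p = 0.0449) and Ro25 (0.21, 0.0444). With the mean of the astrocyte markers as a covariate, Btg2 passed against NVP (-0.22, limma adjusted p = 0.00608) and Ro25 (-0.20, 0.00665), and so did Inhba (-0.27, 0.012, and -0.25, 0.0131). On slide 2, the only slide with both AP5 and NVP, AP5 5 minus the mean of NVP 1 and 3 was 0.27 for Btg1, -0.29 for Btg2, 0 for Bcl6 and 0.04 for Inhba, with no test. NVP and Ro25 gave no call for any member, in a comparison with 0% of genes called in limma and 300 genes at an unadjusted p under 0.05. The differences were -0.02 for Btg1 (interval -0.18 to 0.14), 0.03 for Btg2 (-0.11 to 0.18), -0.13 for Bcl6 (-0.32 to 0.05) and -0.01 for Inhba (-0.27 to 0.26).

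Inhba and Btg2 moved in opposite directions with the astrocyte markers. The 4 arrays lowest in those markers were each the highest of their group for Inhba, at -2.17 (Ro25 3), -2.05 (vehicle 3), -2.09 (NVP 4) and -2.59 (AP5 5). They were also each the lowest of their group for the probe that represents Btg2, at -1.42, -1.29, -1.26 and -1.45 in the same order, and in 3 of 4 groups for each other Btg2 probe. With the mean of the astrocyte markers as a covariate, the fitted slope per log2 unit of that mean was -0.31 (SE 0.04) for Inhba, 0.14 (SE 0.03) for Btg2, 0.04 (SE 0.05) for Btg1 and -0.02 (SE 0.06) for Bcl6. Limma adjusted p-values were 1.89e-05 for Inhba and 0.00182 for Btg2, with 33% of all genes called for this slope. Over the other 15 arrays the slopes were -0.14 (SE 0.12, limma adjusted p = 0.56) for Inhba and 0.17 (SE 0.08, 0.27) for Btg2. Those of Btg1 and Bcl6 were -0.29 (SE 0.13, 0.21) and -0.12 (SE 0.14, 0.706). None of the members passed there. The Inhba slope was smaller than over 19 arrays, and the Btg2 slope was not. The Btg1 slope was the steepest of the members and opposite in sign to that over 19 arrays. Deviations from the group means of Btg2 and Inhba had a correlation of -0.70 over the 19 arrays. On each array both genes pass through the same loess fit, and all arrays share the reference RNA.

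**Figure D4:**
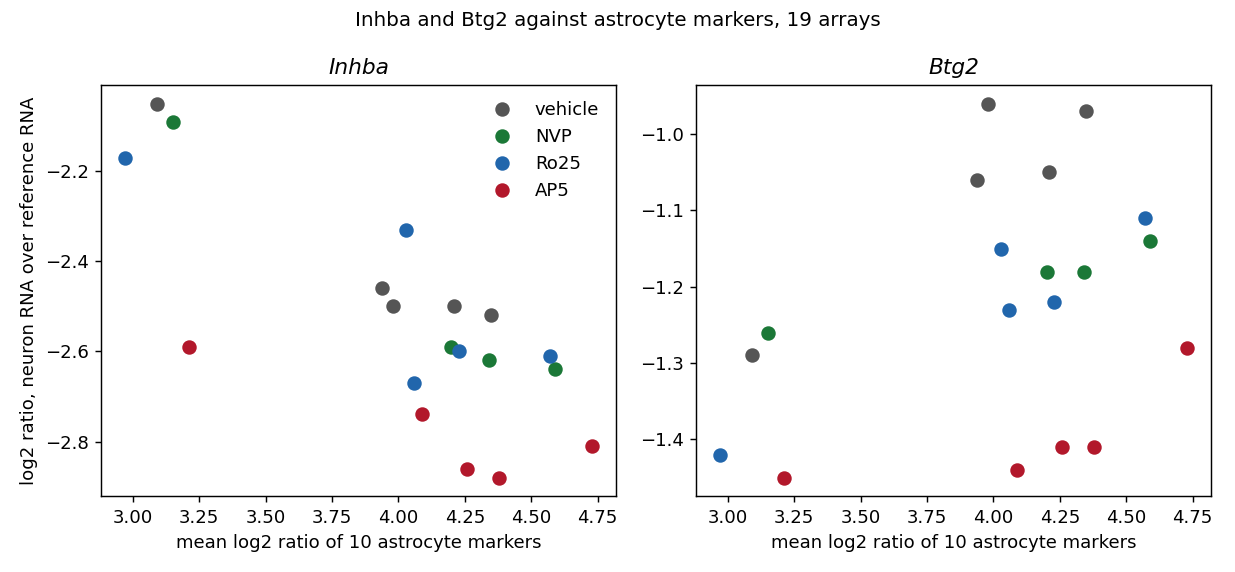
Log2 ratio of Inhba and Btg2 on each of the 19 arrays against the mean log2 ratio of 10 astrocyte markers, coloured by group. The 4 arrays at 2.97 to 3.21 on the horizontal axis are the highest of their groups for Inhba and the lowest for Btg2, and among the other 15 arrays those of AP5 are the lowest in both panels.

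Without those 4 arrays, Inhba stood at -2.50 ± 0.02 with vehicle (SD, n = 4), -2.62 ± 0.02 with NVP (n = 3), -2.55 ± 0.15 with Ro25 (n = 4) and -2.82 ± 0.06 with AP5 (n = 4). All NVP and all AP5 arrays then lay below all vehicle arrays. Of the Ro25 arrays, Ro25 1, at -2.33, lay above all vehicle arrays, and Ro25 2, 4 and 5 lay below all of them. By the probe that represents it, Btg2 stood at -1.01 ± 0.05, -1.17 ± 0.02, -1.17 ± 0.06 and -1.39 ± 0.07 in the same order of groups, with each antagonist's arrays below all vehicle arrays. This did not hold for NVP and Ro25 at its other probes. There NVP 2 lay above all vehicle arrays, at -0.65 (A_52_P925197) and -0.09 (A_52_P35217). Ro25 2 and 4 lay within the vehicle range, at -0.83 and -0.93 by the first of these probes and -0.39 and -0.32 by the second. In these 15 arrays, 7.73% of genes lay below vehicle without overlap for AP5, 3.56% for NVP and 1.04% for Ro25.

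In that reduced set the AP5 change was -0.33 for Inhba (SE 0.07, limma adjusted p = 0.00369) and -0.37 for Btg2 (SE 0.05, 0.00025), with 15.5% of genes called. Neither NVP nor Ro25 gave a call for a member, with 0% and 0.00521% of genes called. The NVP changes were -0.15 for Btg2 (SE 0.06, adjusted p = 0.534) and -0.12 for Inhba (SE 0.07, 0.714), and the Ro25 changes were -0.16 (SE 0.05, adjusted p = 1) and -0.06 (SE 0.07, adjusted p = 1). Against NVP and Ro25, AP5 was lower for Btg2 by limma in this set (-0.22, adjusted p = 0.0435, and -0.21, 0.0251), and against Ro25 for Inhba (-0.27, 0.0236). Leaving these arrays out and using the covariate were chosen after seeing the data.

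Markers of several cell types also shifted with AP5, in a comparison where 10.8% of all genes were called higher and 7.22% lower. The mean of 10 astrocyte markers ran from 3.09 to 4.35 with vehicle and from 3.21 to 4.73 with AP5, and 1 of the 10 was called higher. Of 8 interneuron markers 3 were called higher with AP5, and their mean ran from 2.66 to 2.96 with vehicle and from 3 to 3.13 with AP5. Of 8 excitatory neuron markers 3 were called higher (means from 2.83 to 3.13 and from 3.06 to 3.29). Of 7 microglial markers tested 3 were called lower (means from -2.67 to -2.47 and from -2.87 to -2.64). Of 8 oligodendrocyte lineage markers 2 were called higher (means from 1.91 to 2.77 and from 2.25 to 3), and of 6 endothelial and fibroblast markers tested none was called (means from -3.54 to -3.31 and from -3.65 to -3.38). The part of these shifts in the changes of Btg2, Inhba and Btg1 was not tested. In the green channel alone, which held the same reference RNA on every array, the AP5 difference was 0.02 for Btg1, -0.02 for Btg2, 0 for Bcl6 and 0.07 for Inhba (SE 0.03, limma adjusted p = 0.102), none of them called. In that channel 1070 genes were called for AP5 against vehicle.

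The genes of the same survival set moved both ways with AP5, in the comparison where 18% of all genes were called. Of its 9 genes 8 were tested, and of these 5 were lower, Btg2 and Inhba among them, and 3 were higher. The median log2 fold change of the 8 was -0.35 against 0.01 for all genes. Nr4a1, an immediate early nuclear receptor, fell from -1.01 ± 0.19 to -2.46 ± 0.12 (SD, n = 5 each), a change of -1.45 (SE 0.08, limma adjusted p = 5.02e-09). Npas4, an activity-dependent transcription factor, was called lower (limma adjusted p = 1.31e-06). Its probe was above background on only 1 of 5 AP5 arrays against 5 of 5 with vehicle. The size of its change therefore depended on how background was treated, at -1.33 after normexp and -3.45 with the deposited log ratio (limma adjusted p = 5.64e-07). In the same set Gadd45g, a stress-response gene, rose by 0.80 (SE 0.05, limma adjusted p = 1.94e-08), and so did Atf3 (0.67) and Gadd45b (0.66), while Ifi202b fell by 0.46 at limma adjusted p = 0.0116. These last 3 were named after their values were seen. With NVP and Ro25 none of the 8 passed, and Nr4a1 differed by -0.26 (SE 0.09) and -0.41 (SE 0.08), with limma adjusted p-values of 0.39 and 0.325.

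**Figure D5:**
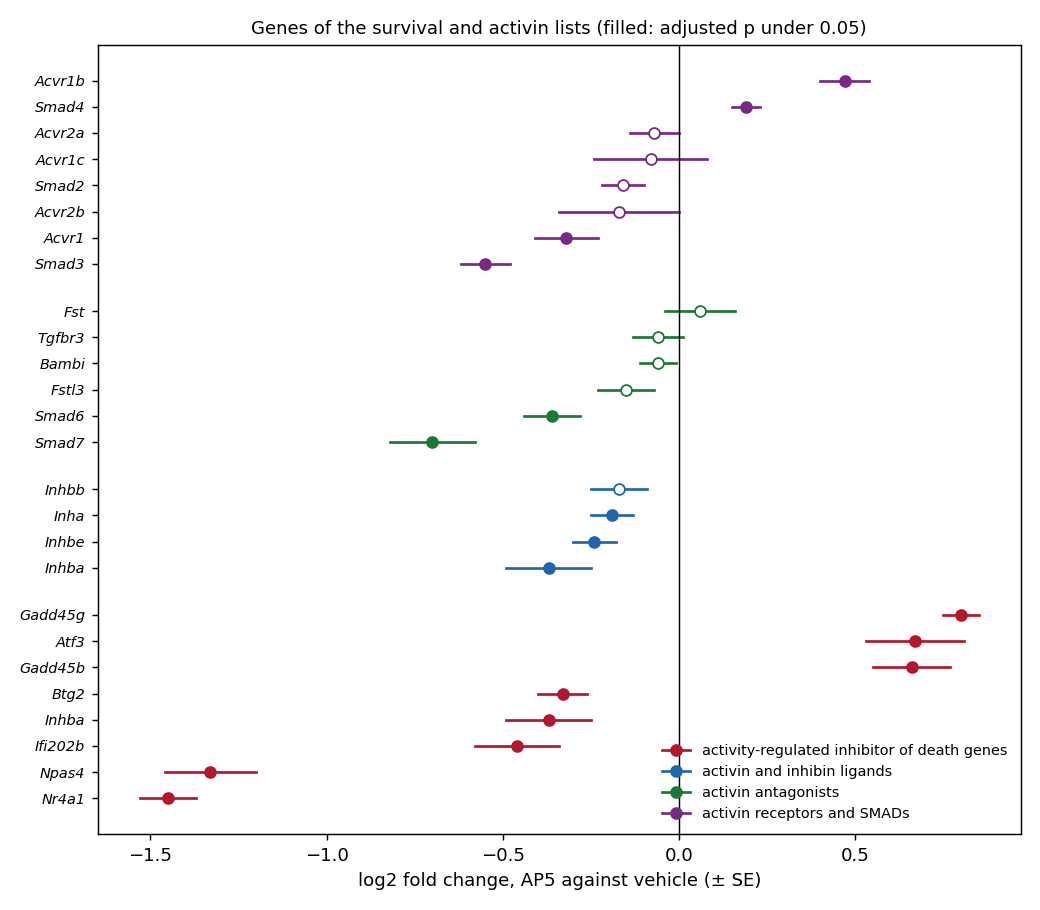
Log2 fold change with AP5 against vehicle (± SE) of the tested genes of the survival set and of the activin ligand, antagonist and receptor lists, with filled circles where the limma adjusted p was under 0.05. In the survival set Nr4a1 is at -1.45 and Gadd45g at 0.80, Npas4 was above background on only 1 of 5 AP5 arrays, and Inhba (-0.37) has the most negative value of the activin ligands.

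Of the Btg and Tob family, 5 of 6 genes were tested, and Btg1 and Btg2 were the members called, 1 in each direction. For this list and the next, 18% of all genes were called with AP5. Btg3 differed by -0.36 (SE 0.15, limma adjusted p = 0.0995), Tob1 by -0.02 and Tob2 by 0.01. Of 13 genes of the CCR4-NOT deadenylase, its partner poly(A) binding protein and Prmt1, 1 was higher and none lower with AP5, at a median of 0.07. That one was the scaffold Cnot1, at 0.25 (SE 0.09, limma adjusted p = 0.0491), and its other probe gave 0.05. Its call was lost under 11 of 15 alternatives, a count that leaves aside the removal of single arrays here and for the genes that follow. Prmt1, the methyltransferase that both BTG proteins bind, differed by 0.02 (SE 0.07).

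Of 9 genes that are Bcl6 corepressors or its paralog, 2 were lower and none higher, at a median of -0.15, where 7.22% of all genes were lower. Bcl6b, the paralog, fell by 0.26 (SE 0.07, limma adjusted p = 0.0126), from -1.25 ± 0.10 to -1.52 ± 0.05 (SD, n = 5 each). Tbl1x, a subunit of the NCOR1 complex, fell by 0.22 (SE 0.07, limma adjusted p = 0.0359). Bcl6b lost its call in the red channel alone (-0.07, limma adjusted p = 0.567), with normexp fitted to all spots (-0.13, 0.926), with the deposited log ratio (-0.24, 0.188), with ratios brought to 1 spread (-0.26, 0.328) and under the fixed slide block (-0.07, 0.92). The Tbl1x call was lost under 7 of 15 alternatives. The direct corepressors Bcor (-0.15) and Ncor1 (0.04) and the deacetylase Hdac3 (0.04) did not pass.

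With AP5, where 7.22% of all genes were lower, 3 of the 4 activin and inhibin subunits tested were lower, at a median of -0.21. Besides Inhba these were Inha, the alpha subunit that turns a beta subunit into inhibin, which fell by 0.19 (SE 0.06, limma adjusted p = 0.0416), and Inhbe, the beta-E subunit, which fell by 0.24 (SE 0.06, 0.0157). The second kept probe of Inha gave -0.04. The Inha call was lost under 8 of 15 alternatives and the Inhbe call under 5, with the Inhbe change at -0.06 (limma adjusted p = 0.639) in the red channel alone. Inhbb, the beta-B subunit, differed by -0.17 (SE 0.08, limma adjusted p = 0.144). Of 6 antagonists 2 were lower, both of them inhibitory SMADs. Smad7 fell by 0.70 (SE 0.12, limma adjusted p = 0.000621) and Smad6 by 0.36 (SE 0.08, 0.00421), while follistatin (Fst), which traps activin, differed by 0.06 (SE 0.10). The Smad6 call was lost under 5 of 15 alternatives, with a change of -0.01 (limma adjusted p = 0.964) in the red channel alone.

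Of 8 activin receptors and SMADs, 2 were higher and 2 lower, against 10.8% and 7.22% of all genes. Acvr1b, the type I receptor through which activin A signals, rose by 0.47 (SE 0.07, limma adjusted p = 6.56e-05), from 1.98 ± 0.11 to 2.46 ± 0.08 (SD, n = 5 each). Smad3, which that receptor phosphorylates, fell by 0.55 (SE 0.07, limma adjusted p = 2.85e-05), and the common partner Smad4 rose by 0.19 (SE 0.04, 0.00395). Acvr1, named after its values were seen, fell by 0.32. Kept probes of one gene differed in size, from 0.15 to 0.47 for Acvr1b, from -0.55 to -0.07 for Smad3 and from 0.10 to 0.19 for Smad4. The Smad4 call was lost under 4 of 15 alternatives, among them the authors' processed table (0.11, limma adjusted p = 0.586). The type II receptors Acvr2a (-0.07) and Acvr2b (-0.17) did not pass.

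Of 12 tested genes of nuclear calcium and CREB signalling, 2 were higher and 1 lower with AP5, at a median of 0.03. Among all genes, 10.8% were higher and 7.22% lower in that comparison. Camkk1, a kinase that activates calcium/calmodulin-dependent kinase IV, rose by 0.88 (SE 0.07, limma adjusted p = 5.57e-08), while its relative Camkk2 fell by 0.63 (SE 0.16, limma adjusted p = 0.0113). Creb1 rose by 0.32 (SE 0.07, limma adjusted p = 0.00413), with its 3 probes from 0.03 to 0.32. Its call was lost under 5 of 15 alternatives, among them the authors' processed table (0.04, limma adjusted p = 0.849). With ratios brought to 1 spread the calls of Camkk2 (-0.63, limma adjusted p = 0.0626) and Acvr1b (0.48, 0.0896) were lost. Camk4 itself differed by -0.20 (SE 0.11, limma adjusted p = 0.217). No gene of any of these lists passed with NVP or Ro25, where 0% of genes were called. Without the 4 arrays lowest in astrocyte markers, the AP5 calls of Cnot1, Tbl1x, Inha and Acvr1 were lost, the Btg and Tob family had 2 genes lower and none higher, and the counts of the survival set, the antagonists and the CREB list were the same. With slide as a fixed block, 1 gene of the survival set was called higher, and no other gene of these lists was called.

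The genes most like each member were those with the highest Pearson correlation of the log2 ratio over the 19 arrays, given as a description. For Btg2 they were Nudt8, Nfkb2 and Trib1, at 0.90 each and at 0.89, 0.93 and 0.95 over the 15 arrays without the 4 lowest in astrocyte markers. Their AP5 changes were -0.25, -0.35 and -0.68, and Trib1 is a pseudokinase and Nfkb2 a subunit of NF-kappaB. For Inhba they were Ehbp1l1, Ptger3 and Dmp1, at 0.94 each (0.85, 0.92 and 0.88 over the 15). Ptger3 is a prostaglandin E receptor. For Btg1 they were Pcmtd2, Hjurp and CF540686 (0.89, 0.88 and 0.87), and for Bcl6 1110020A21Rik, Sec11c and Septin7 (0.82, 0.82 and 0.80). With group means removed, the most like genes were Stk3, Zfp462 and Meis2 for Btg1 (0.90, 0.89 and 0.86), Mipol1, Nthl1 and Cd164 for Btg2 (0.92, 0.92 and 0.91), Oc90, Abca12 and Mettl15 for Bcl6 (0.86 each), and Tgfb1i1, Pkia and Pdlim1 for Inhba (0.97, 0.96 and 0.95). The arrays share the reference RNA and the slides.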

How the data were processed

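RNA of treated neurons (Cy5) and reference RNA (Cy3) were measured on 19 arrays. Per the file headers, the deposited spot intensity values came from Feature Extraction 9.5.3.1, while the submitters' processing notes name version 11.0. The deposited log10 ratio and the authors' table of log2 values (20674 probes, with its filtering and centring not given in the sources used here) served as alternatives. That table held 4 of the 7 member probes, and its columns correlated at 0.9986 to 0.9998 with the ratios computed here. Where it lacked the probe that represents a gene, as for Btg2, the brightest probe it held stood for the gene. A change under this alternative can therefore come from another probe.

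Marked spots were removed, background was corrected by normexp with an offset of 50, and log2 ratios were normalized by loess within arrays, with controls at weight 0. Probes with red well above background on at least 4 arrays were kept (28653), and the brightest represented a gene. Of 41174 probes, 33026 were named through a RefSeq table and 8148 kept the name in the files. Groups were compared in limma 3.58.1 (R 4.3.3), in 1 model over 19 arrays, two-sided, with Benjamini-Hochberg adjustment within each of 6 comparisons and a threshold of 0.05. Array number limits the precision, and the median standard error was 0.08. The scripts were tested on simulated data. Members and lists were chosen with earlier results of these data known, and 2 listed genes are not reported here. Named genes were all members, at most 3 called genes per list and comparison by smallest adjusted p, and the 3 most correlated genes by each of 2 measures, beside genes said to be named later. Alternatives changed the background correction, input values, scaling, filter, probe rule, blocks, weights and arrays used.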

Additional observations from a re-analysis of the deposited data

Results flagged for a closer look

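In all, 4 of 28 sets of values (7 probes in 4 groups) held an array far from the others of its group by Dixon's criterion, where chance gives about 1 in 20. Inhba was at -2.05 on vehicle 3 and at -2.09 on NVP 4, far above the other arrays of these groups, and both arrays were among the 4 lowest in astrocyte markers. Btg2 was at -1.28 on AP5 2 by the probe that represents it, above the other AP5 arrays. By the probe A_52_P925197, Btg2 was at -0.65 on NVP 2, above the other NVP arrays.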

How the results depend on the processing

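Slide, probe choice and scaling limit these results, and changes of this size were close to the precision of the arrays. For AP5 against vehicle, normexp fitted to all spots gave 0.22 for Btg1 (limma adjusted p = 0.151) and -0.33 for Inhba (0.224). The deposited log ratio gave 0.22 (0.0663) and -0.35 (0.137), and log ratios brought to 1 spread gave 0.25 (0.641), -0.36 (0.563) and, for Btg2, -0.33 (0.0692). Slide as a fixed block gave 0.38 for Btg1 (0.576), -0.51 for Btg2 (0.457) and 0.15 for Inhba (0.907), with 10 genes called against 3465. For Inhba, the authors' table gave -0.37 (0.0501), the red channel alone -0.23 (0.349) and the replicate block -0.37 (0.0619), and that block changed no other call of a member against vehicle. The mean of both probes gave 0.13 for Btg1 (0.233). Leaving out the 4 arrays lowest in astrocyte markers gave 0.22 for Btg1 (0.077) and -0.26 for Bcl6 (0.0362), and array weights gave -0.28 for Bcl6 (0.00903). Bcl6 with Ro25 was at 0.02 within slide 4. The cause was not tested in any of these. Leaving out 1 array at a time gave 0.20 to 0.27 for Btg1, -0.42 to -0.28 for Inhba, -0.38 to -0.30 for Btg2 and -0.22 to -0.11 for Bcl6. Genes called for AP5 numbered 854 with normexp on all spots, 959 with 1 spread, 2118 from red alone and 5516 with the astrocyte covariate. They numbered 12 for NVP with array weights, at most 2 for Ro25 under any alternative, 190 to 1606 for AP5 against NVP and 23 to 2078 against Ro25. Same-numbered samples of AP5 and vehicle had correlations of deviations from -0.47 to 0.09, while Ro25 3 and vehicle 3 stood at 0.77. The array low in astrocyte markers carried the same number in Ro25 and vehicle (Ro25 3 and vehicle 3), but another number in AP5 (AP5 5). Whether the numbers pair samples was not tested. The labels do not say. Bcl6 against Ro25 lost its call with normexp on all spots (-0.28, 0.103), red alone (-0.22, 0.212), 1 spread (-0.25, 0.344), the 2 groups alone (-0.30, 0.0914) and slide as a fixed block (-0.16, 0.682).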
